A study of Mus musculus with 12 samples.

Results

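RNA of 10 genes that encode proteins limiting signals of G protein-coupled receptors was followed in bone marrow-derived macrophages (BMDMs) treated with fenoterol, an agonist of the β2-adrenergic receptor (B2AR). The genes were chosen by symbol, with earlier results of these data known, out of 53379 genes in the count table, and comprise 6 regulators of G protein signaling (*Rgs1*, *Rgs2*, *Rgs10*, *Rgs16*, *Rgs18* and *Rgs19*), 2 G protein-coupled receptor kinases (*Grk2* and *Grk6*) and the 2 β-arrestins (*Arrb1* and *Arrb2*). All 10 had counts in every library and passed the filter on low counts. BMDMs came from the femur and tibia marrow of 4 C57Bl/6J mice (male and between 8 and 20 weeks old according to the methods) and were differentiated for 1 week in RPMI with 10% FCS and 20% medium conditioned by L929 cells. Each mouse gave 1 library of untreated cells and 1 library each after 1 h and 4 h with 1 μM fenoterol in this same medium, so that the 3 groups held 4 libraries each. No genotype differed between groups. The study asked how B2AR stimulation changes gene expression in macrophages, and the comparisons here ask which of these 10 transcripts moved at 1 h and at 4 h.

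When an agonist occupies a receptor, the α subunit of its G protein binds GTP and signals until the GTP is hydrolyzed. RGS proteins act as GTPase-activating proteins for α subunits, mainly of the Gi and Gq families, and so shorten the signal. GRKs phosphorylate agonist-occupied receptors, and β-arrestins bind the phosphorylated receptor, uncouple it from its G protein and link it to clathrin-mediated endocytosis. B2AR, which couples mainly to Gs, is a classical substrate of GRK2 and partner of both β-arrestins.

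Libraries held between 14580533 and 24153284 counts. Macrophage markers were abundant in every library: all 8 passed the filter, with a summed normalized count of 749558 to 785988 in untreated cells, between 725213 and 852873 at 1 h, and between 702036 and 789485 at 4 h. Of these 8 markers, 2 passed the test at 1 h and 7 at 4 h, against 20.1% and 40.0% of all genes tested. The lipopolysaccharide co-receptor gene *Cd14* went from 12826 ± 1182 (SD, n = 4 mice) to 67010 ± 4997 at 1 h and 73330 ± 6362 at 4 h, and the efferocytosis receptor gene *Mertk* from 3859 ± 181 to 3369 ± 182 and 1352 ± 41.8. Whether these shifts bear on the 10 genes was not tested. *Ly6g*, *Cd3e* and *Gp9*, which mark neutrophils, T cells and platelets, had at most 3 counts in any library. In the T and NK cell list, however, *Lck* had 3 to 11 raw counts a library. In the B cell list *Cd79b* had 122 to 213 and passed no test. The 1 dendritic cell marker tested, *Zbtb46*, had 2 to 14 raw counts. At 4 h it passed with limma-voom but not with DESeq2 or edgeR (log2 fold change -1.06, edgeR adjusted p = 0.133). Other genes of these lists were detected: the 8 neutrophil and precursor markers summed to between 437 and 890 normalized counts, with *S100a9* as the largest in raw counts (218 to 508). Of the 5 that were tested, 0 passed with edgeR, DESeq2 or limma-voom at 1 h or 4 h, and 0 had an unadjusted edgeR p under 0.05. The 6 fibroblast and stromal markers summed to between 422 and 1310, and of the 4 tested, 0 passed edgeR's test at 1 h (0 also with an unadjusted p under 0.05, DESeq2 or limma-voom) and 1 at 4 h, the endothelial cadherin gene *Cdh5* (5.50 ± 4.18 normalized counts without fenoterol and 24.4 ± 3.64 at 4 h). All these libraries are bulk RNA, in which fewer cells of a kind and less RNA per cell cannot be told apart.

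*Rgs1*, *Rgs2* and *Rgs18* are neighbors. On chromosome 1 of GRCm38 the interval from 143999338 to 144775435, 776 kb long, holds 5 protein-coding genes, and all 5 are RGS genes on the minus strand: *Rgs2*, *Rgs13*, *Rgs1*, *Rgs21* and *Rgs18*. *Rgs13* and *Rgs21* had 0 counts in every library, so 3 of the 5 could be tested. The start of *Rgs1* lies 245 kb from that of *Rgs2*, and the start of *Rgs18* 771 kb from it. Within this cluster *Rgs2* and *Rgs1* rose with fenoterol, while *Rgs18* fell at 4 h, as detailed for each gene. *Rgs16* is on chromosome 1 too, outside this interval.

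Promoter sequence from RefSeq (GRCm38.p6) was found for 5 of the 10 genes, *Rgs2*, *Rgs10*, *Rgs16*, *Rgs19* and *Grk6*, with 9 promoters in all. *Rgs1*, *Rgs18*, *Grk2*, *Arrb1* and *Arrb2* are named without sequence. The 250 bases before each start were searched on both strands for the cAMP response element TGACGTCA, to which CREB binds, and for its shorter core TGACG, read as CGTCA on the other strand, which is contained in the full element. Shown are the promoters of *Rgs2*, a transcript that rose, *Rgs19*, one that fell at 1 h, and *Grk6*, one that passed no test, with cores in capitals. Where a gene had several starts, the most upstream is shown. The sequences are written 5′ to 3′ on the strand of the gene.

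*Rgs2* (chr1:144004162-144004399, minus strand): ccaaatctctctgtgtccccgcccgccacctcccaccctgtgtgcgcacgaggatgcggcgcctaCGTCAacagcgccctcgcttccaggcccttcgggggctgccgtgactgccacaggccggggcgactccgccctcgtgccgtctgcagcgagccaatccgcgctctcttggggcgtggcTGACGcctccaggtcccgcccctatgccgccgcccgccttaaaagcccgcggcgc
*Rgs19* (chr2:181693978-181694227, minus strand): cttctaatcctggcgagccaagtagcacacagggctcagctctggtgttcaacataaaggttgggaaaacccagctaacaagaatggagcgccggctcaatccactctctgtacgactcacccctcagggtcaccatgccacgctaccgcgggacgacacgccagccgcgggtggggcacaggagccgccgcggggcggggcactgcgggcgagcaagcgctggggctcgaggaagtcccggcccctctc
*Grk6* (chr13:55444822-55445071, plus strand): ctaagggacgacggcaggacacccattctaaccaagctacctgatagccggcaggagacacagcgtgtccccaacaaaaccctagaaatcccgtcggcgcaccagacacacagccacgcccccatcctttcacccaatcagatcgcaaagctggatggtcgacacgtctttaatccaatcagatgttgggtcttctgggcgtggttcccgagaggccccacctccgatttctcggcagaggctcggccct

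The *Rgs2* promoter held a core as CGTCA 185 bases and one as TGACG 67 bases before the start, counted to the first base of the match, and no full element. The last 12 bases of its 250-base window lie in an annotated exon and are left out of the printed sequence. The other 8 promoters of *Rgs10*, *Rgs16*, *Rgs19* and *Grk6* held neither motif. Among 32851 mouse promoters cut to the same 250 bases, 17.8% held at least 1 core, 3.90% at least 2 and 1.55% the full element. A match describes letters only, and its absence from this window says nothing of the factor.

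After 1 h of fenoterol, edgeR's quasi-likelihood test called 4 of the 10 genes (adjusted p under 0.05), against 20.1% of the 12386 genes tested. *Rgs1* and *Rgs2* were higher, as were 10.0% of all genes, and *Rgs16* and *Rgs19* were lower, as were 10.1%. The median log2 fold change was -0.10 over the 10 genes and -0.00 over all genes. After 4 h, 5 of the 10 differed, near the 40.0% of all genes. *Rgs1* and *Rgs2* were higher, against 19.7% of all genes, and *Rgs10*, *Rgs18* and *Arrb1* lower, against 20.4%. The median log2 fold change was then -0.12, and 0.00 over all genes. Where the fit held the mouse as a block, 6 of the 10 differed at 1 h, against 27.0% of all genes, and 7 at 4 h, against 47.4%. The genes added were *Rgs10* and *Arrb2* at 1 h and *Rgs16* and *Arrb2* at 4 h. Both time points were compared with the same untreated libraries. The labels give no separate untreated group for each time, so effects of fenoterol and of time in culture cannot be told apart. Changes of single genes are given on the log2 scale with their standard error (SE).

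**Figure D1:**
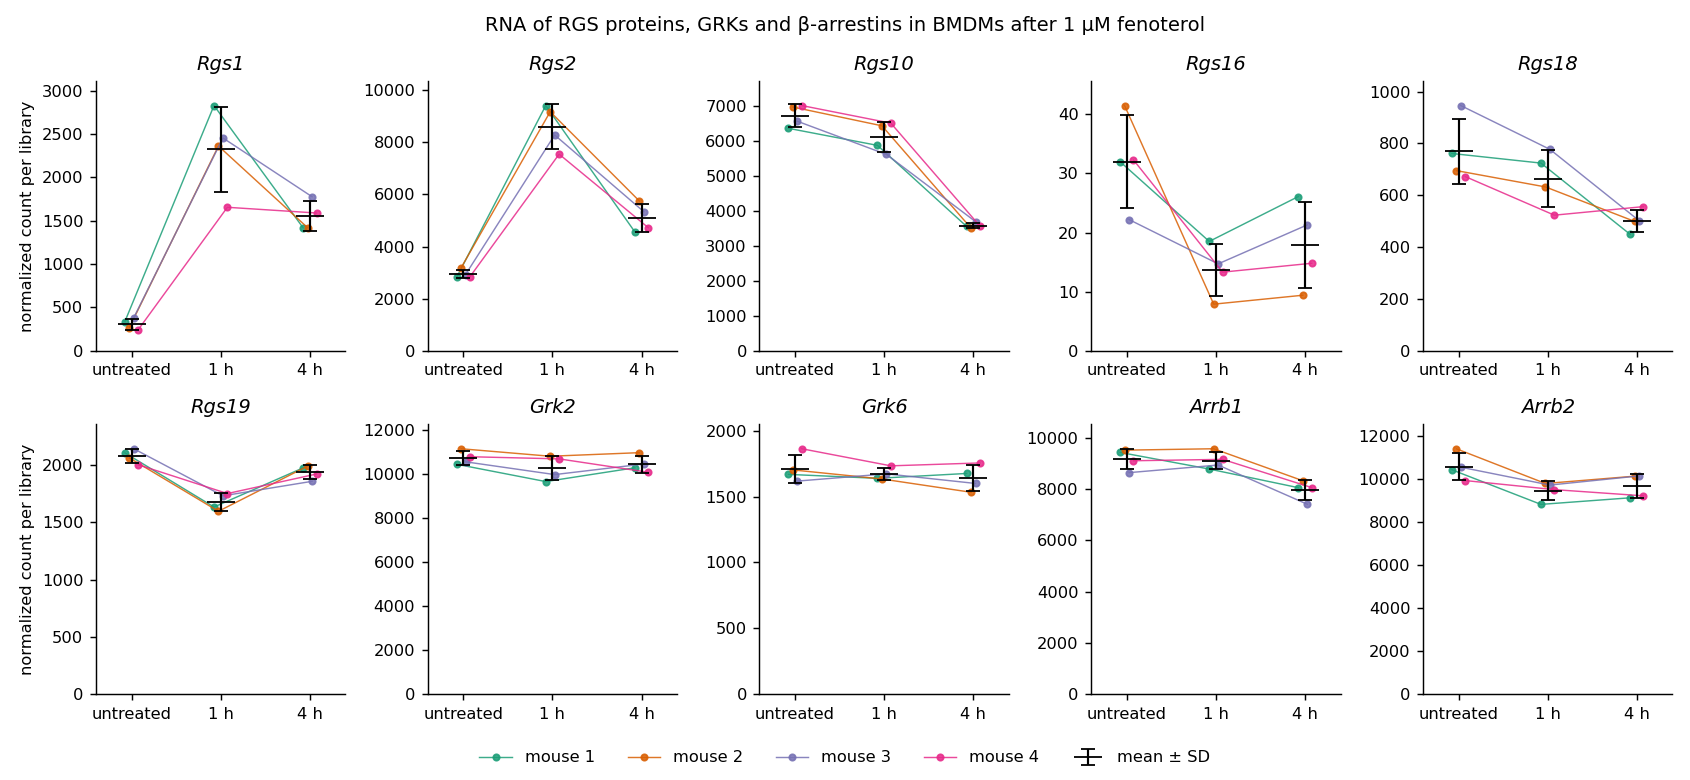
Normalized read count of each of the 10 genes (y axis, from 0) in untreated BMDMs and after 1 h and 4 h of 1 μM fenoterol (x axis). Colored points and lines are the 4 mice and black bars the mean ± SD; *Rgs1* and *Rgs2* peak at 1 h in every mouse, *Rgs10* drops between 1 h and 4 h in every mouse, and the groups overlap for *Grk2* and *Grk6*.

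*Rgs1* (ENSMUSG00000026358, chr1:144242296-144249242, minus strand) encodes a leukocyte RGS protein that dampens chemokine receptor signaling, and its RNA rose the most of the 10. Normalized counts in mice 1 to 4 were 336, 267, 381 and 243 without fenoterol, then 2829, 2362, 2455 and 1655 at 1 h and finally 1418, 1420, 1777 and 1589 at 4 h. All treated values lay far above the untreated ones, and mouse 4 had the smallest value at 1 h. At 1 h the change was 2.91 (SE 0.17, edgeR adjusted p = 6.46e-09), a 7.53-fold rise with a 95% interval of 5.88 to 9.65. At 4 h it was 2.33 (SE 0.16, adjusted p = 4.12e-08), a 5.03-fold rise. From 1 h to 4 h *Rgs1* fell in 4 of 4 mice (-0.58, SE 0.15, edgeR adjusted p = 0.00649), although the groups overlapped, mouse 4 at 1 h lying below mouse 3 at 4 h.

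*Rgs2* (ENSMUSG00000026360, chr1:143999338-144004161, minus strand) encodes an RGS protein with a preference for Gq that also binds adenylyl cyclases. It had 2818, 3182, 2924 and 2843 normalized counts in mice 1 to 4 without fenoterol, then 9413, 9176, 8283 and 7547 at 1 h and finally 4560, 5749, 5338 and 4725 at 4 h. The 3 groups did not overlap: every 1 h value was the highest of its mouse and every untreated value the lowest. *Rgs2* had changes of 1.55 at 1 h (SE 0.09, edgeR adjusted p = 4.35e-09, 2.93-fold) and 0.79 at 4 h (SE 0.08, adjusted p = 3.01e-06, 1.73-fold). The fall from 1 h to 4 h was itself past the threshold (-0.76, SE 0.08, edgeR adjusted p = 6.36e-06).

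*Rgs10* (ENSMUSG00000030844, chr7:128373621-128418758, minus strand) encodes a small RGS protein that acts on Gi-family α subunits and is well expressed in myeloid cells. Its normalized counts in mice 1 to 4 were 6359, 6968, 6562 and 7010 without fenoterol, then 5871, 6431, 5612 and 6506 at 1 h and finally 3554, 3503, 3691 and 3562 at 4 h. The 4 h values lay in a narrow band below all others. At 4 h *Rgs10* had changed by -0.91 (SE 0.06, edgeR adjusted p = 1.06e-08), which left 0.532 of the untreated level, and from 1 h to 4 h it was -0.77 (adjusted p = 9.77e-08). At 1 h the value was lower in 4 of 4 mice, but the groups overlapped and the change of -0.14 (SE 0.06) had an edgeR adjusted p of 0.103. With the mouse as a block that p was 0.0428, and with scaling by library size only, which gave -0.21, it was 0.0149. Over all alternatives it ran from 0.0149 to 0.316.

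*Rgs19* (ENSMUSG00000002458, chr2:181688419-181693977, minus strand), also known as GAIP for its binding to an α subunit of the Gi family, moved briefly. Mice 1 to 4 had 2109, 2065, 2145 and 2005 normalized counts without fenoterol, then 1635, 1598, 1733 and 1753 at 1 h and finally 1978, 1993, 1860 and 1924 at 4 h. All 1 h values were below all values of the other groups. *Rgs19* changed by -0.31 at 1 h (SE 0.05, edgeR adjusted p = 0.00028), and from 1 h to 4 h it was 0.21 (SE 0.05, adjusted p = 0.00348). At 4 h against untreated BMDMs it was -0.10 with an edgeR adjusted p of 0.108, although all 4 values lay just under the lowest untreated one.

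*Rgs18* (ENSMUSG00000026357, chr1:144752683-144775435, minus strand) encodes an RGS protein of blood cells that is known best from platelets. Its normalized counts in mice 1 to 4 were 761, 695, 946 and 672 without fenoterol, then 724, 632, 777 and 523 at 1 h and finally 449, 499, 502 and 556 at 4 h. The untreated and 1 h values overlapped widely, although each of the 4 mice was lower at 1 h than untreated. All 4 h values were below all untreated ones. The change at 4 h was -0.62 (SE 0.13, edgeR adjusted p = 0.0012), while at 1 h it was -0.21 (adjusted p = 0.281). From 1 h to 4 h it was -0.40 (SE 0.13, edgeR adjusted p = 0.021), lower in 3 of 4 mice, with overlapping groups. This last call was lost with scaling by library size only (-0.31, adjusted p = 0.065), without the 1 h library of mouse 1 (-0.36, 0.0597) or mouse 3 (-0.34, 0.0603), and without the 4 h library of mouse 1 (-0.35, 0.0614), within a range over alternatives of 0.00416 to 0.065. Of 5 platelet and megakaryocyte markers, *Gp9* and *Gp1bb* were among 3 with at most 3 counts in every library, and the other 2 were tested. The summed normalized count of the list lay between 37.2 and 72.1 without fenoterol, between 43.1 and 66.4 at 1 h, and between 93.5 and 111 at 4 h, the opposite direction to *Rgs18*. Most of this sum was *Ppbp*, which encodes a platelet chemokine precursor, with 49.3 ± 13.4 normalized counts without fenoterol, 48.1 ± 10.3 at 1 h and 91.5 ± 10.6 at 4 h (SD, n = 4 mice). *Ppbp* was the 1 marker of the list that passed at 4 h (log2 fold change 0.90, SE 0.21, edgeR adjusted p = 0.00298). The part of platelet or megakaryocyte RNA in the *Rgs18* values was not tested.

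*Rgs16* (ENSMUSG00000026475, chr1:153740349-153745468, plus strand), a regulator of Gi and Gq signaling that is known as an inducible gene, was the scarcest of the 10. Normalized counts in mice 1 to 4 were 32.0, 41.5, 22.2 and 32.3 without fenoterol, then 18.5, 7.88, 14.7 and 13.3 at 1 h and finally 26.1, 9.39, 21.3 and 14.8 at 4 h. The untreated and 1 h values did not overlap, and those at 4 h lay between and overlapped both. *Rgs16* changed by -1.21 at 1 h (SE 0.33, edgeR adjusted p = 0.0188). The call at 1 h was lost without the untreated library of mouse 2 (-1.07, adjusted p = 0.0604) and without its 1 h library (-1.03, 0.0596), and its adjusted p ranged from 0.00989 to 0.0604 over the alternatives. At 4 h the value was -0.83 (SE 0.32, edgeR adjusted p = 0.0534), with a range of 0.0277 to 0.146, and 0.0342 with the mouse as a block. It passed at 4 h without the untreated library of mouse 3 (-0.98, adjusted p = 0.0354), the 1 h library of mouse 2 (-0.83, 0.0487) or the 4 h library of mouse 1 (-1.05, 0.0277). An antisense gene, *Gm28513*, covers 10.09% of the exon bases of *Rgs16*, and it had 2 counts over the 12 libraries against 250 for *Rgs16*.

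**Figure D2:**
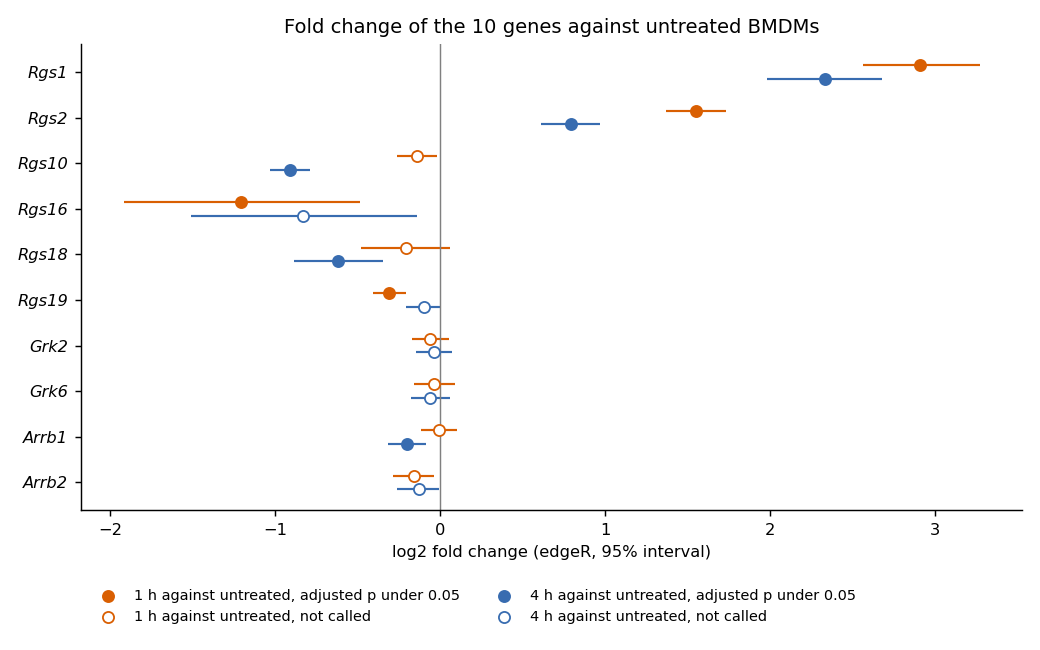
Log2 fold change against untreated BMDMs (x axis) of the 10 genes (y axis) at 1 h in orange and at 4 h in blue, from edgeR with 95% intervals; filled points had an adjusted p under 0.05. *Rgs1* and *Rgs2* lie to the right at both times, *Rgs10* and *Rgs18* lie to the left with filled points at 4 h, and the kinases and β-arrestins sit within 0.20 of 0.

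For the 2 kinases no difference between groups passed the test. *Grk2* (ENSMUSG00000024858, chr19:4286001-4306222, minus strand), whose protein is brought to the membrane by Gβγ and phosphorylates B2AR, had 10425, 11130, 10537 and 10768 normalized counts in mice 1 to 4 without fenoterol, then 9640, 10790, 9957 and 10670 at 1 h and finally 10266, 10952, 10438 and 10062 at 4 h. The groups overlapped throughout, although each of the 4 mice was lower at both times than untreated. *Grk2* had values of -0.06 at 1 h (95% interval -0.17 to 0.05, edgeR adjusted p = 0.466) and -0.04 at 4 h (-0.15 to 0.07, adjusted p = 0.588). *Grk6* (ENSMUSG00000074886, chr13:55445072-55460927, plus strand), a membrane-bound kinase of immune cells, had 1670, 1704, 1619 and 1865 normalized counts without fenoterol, then 1640, 1635, 1674 and 1735 at 1 h and finally 1677, 1534, 1601 and 1757 at 4 h. Mouse 4 had the highest count in each group, and the groups overlapped. *Grk6* had values of -0.04 at 1 h (-0.16 to 0.09, edgeR adjusted p = 0.738) and -0.06 at 4 h (-0.18 to 0.06, adjusted p = 0.43). The intervals of both genes leave room for a change of up to 0.18 on the log2 scale.

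The β-arrestins moved little. *Arrb1* (ENSMUSG00000018909, chr7:99535466-99606771, plus strand), which encodes β-arrestin 1, had 9442, 9530, 8651 and 9116 normalized counts in mice 1 to 4 without fenoterol, then 8792, 9585, 8948 and 9170 at 1 h and finally 8063, 8335, 7416 and 8067 at 4 h. All 4 h values were below all values of the other groups, which overlapped each other. *Arrb1* had values of -0.01 at 1 h (edgeR adjusted p = 0.935) and -0.20 at 4 h (SE 0.05, adjusted p = 0.0058). From 1 h to 4 h it was -0.19 (SE 0.05, edgeR adjusted p = 0.00853), and -0.10 with an adjusted p of 0.117 with scaling by library size only, the highest of a range that began at 0.00105.

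*Arrb2* (ENSMUSG00000060216, chr11:70432635-70440828, plus strand), which encodes β-arrestin 2, had 10430, 11408, 10550 and 9928 normalized counts in mice 1 to 4 without fenoterol, then 8819, 9792, 9718 and 9506 at 1 h and finally 9125, 10131, 10143 and 9217 at 4 h. Each mouse was lower at both times than untreated, and the untreated and 1 h values did not overlap. The changes of -0.16 at 1 h (SE 0.06, edgeR adjusted p = 0.0699) and of -0.13 at 4 h (SE 0.06, adjusted p = 0.0902) did not pass the threshold. With the mouse as a block, the same changes had edgeR adjusted p-values of 0.0109 and 0.0195. Scaling by library size only gave -0.23 at 1 h (adjusted p = 0.00919), and leaving out the untreated library of mouse 4 gave -0.17 at 4 h (adjusted p = 0.048). Over the alternatives the adjusted p spanned 0.00919 to 0.212 at 1 h, and 0.0195 to 0.257 at 4 h.

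Ratios within a library do not depend on how libraries are scaled. The log2 ratio of *Arrb1* to *Arrb2* counts was -0.14, -0.26, -0.29 and -0.12 in mice 1 to 4 without fenoterol, then -0.00, -0.03, -0.12 and -0.05 at 1 h and finally -0.18, -0.28, -0.45 and -0.19 at 4 h. At 1 h it was higher than untreated in 4 of 4 mice by a mean of 0.15, with a p of 0.0286 in a two-sided exact permutation test, the smallest that 4 against 4 libraries can give, and of 0.0857 when adjusted over 6 ratio tests. From 1 h to 4 h it fell by 0.22 on the log2 scale in 4 of 4 mice with the same exact p of 0.0286 and adjusted p of 0.0857. With this smallest p, an adjusted value under 0.05 would need at least 4 of the 6 tests at it, so that the adjusted values say little about these differences. At 4 h the ratio was lower than untreated in 4 of 4 mice by a mean difference of -0.07 (exact permutation p = 0.429). These permutation tests do not use the pairing by mouse. The log2 ratio of *Grk6* to *Grk2* was -2.65 ± 0.08 without fenoterol, -2.62 ± 0.07 at 1 h, and -2.67 ± 0.14 at 4 h (SD, n = 4 mice). It was higher in 2 of 4 mice and lower in the other 2 at both times, with a difference of 0.03 at 1 h (exact permutation p = 0.657) and of -0.02 at 4 h.

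**Figure D3:**
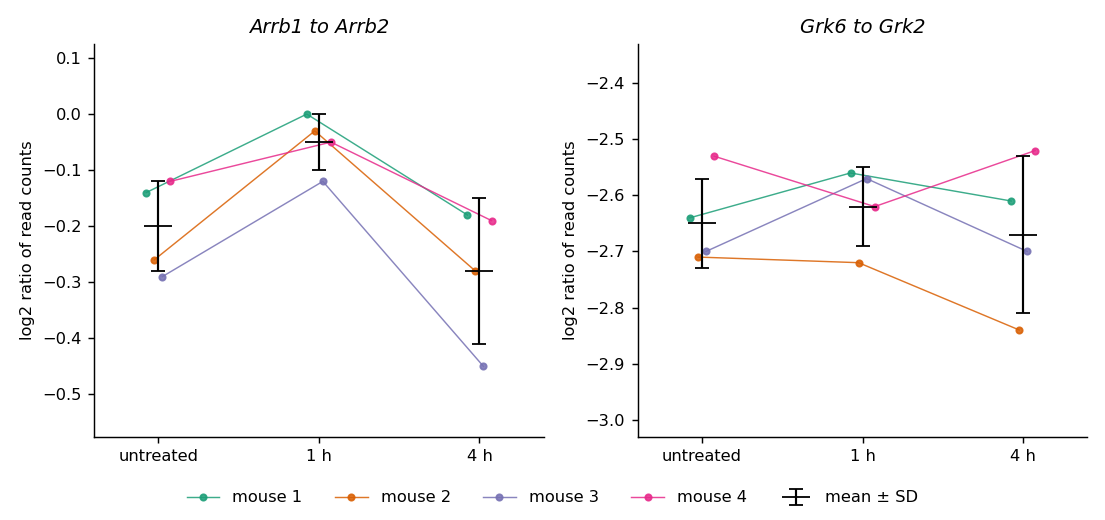
Log2 ratio of the read counts of *Arrb1* to *Arrb2* (left) and of *Grk6* to *Grk2* (right) in untreated BMDMs and after 1 h and 4 h of fenoterol (x axis), on axes of equal span. Colored points and lines are the 4 mice and black bars the mean ± SD; the β-arrestin ratio is highest at 1 h in every mouse, and the kinase ratio has no common direction.

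Levels per length set the 10 transcripts in order. Levels are normalized CPM (counts scaled to a fixed library total) for each kb of the longest coding transcript. Averaged over the 4 untreated libraries, they were 390 ± 18.4 (SD, n = 4 mice) for *Rgs10*, 292 ± 17.0 for *Arrb2*, 162 ± 4.70 for *Grk2*, 70.2 ± 2.04 for *Rgs19*, 65.6 ± 2.84 for *Arrb1*, 49.7 ± 2.81 for *Rgs2*, 29.2 ± 1.81 for *Grk6*, 19.3 ± 3.12 for *Rgs18*, 4.07 ± 0.839 for *Rgs1* and 0.698 ± 0.172 for *Rgs16*. On this length only *Rgs19* and *Arrb1* overlapped among neighbors in the untreated order. At 1 h *Rgs2* came up next to *Grk2* at 145 ± 14.5, where the values overlapped those of *Grk2* at 155 ± 8.39, and *Rgs1*, at 30.9 ± 6.51, overlapped *Grk6* at 28.5 ± 0.787. At 4 h *Arrb2*, at 266 ± 15.4, stood above *Rgs10*, at 207 ± 4.65, with no overlap. The order depends on the length used. With all exon bases, *Rgs10* (190 to 209) and *Arrb2* (178 to 204) overlapped in untreated cells, as did *Arrb1* (39.5 to 43.5) and *Rgs2* (39.6 to 44.7). At 4 h *Rgs10* (104 to 110) then lay below *Grk2* (115 to 125) as well as below *Arrb2* (164 to 182). The level of *Rgs16* stayed under 1 in every group's mean.

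The makeup of the RGS transcripts shifted with these changes. Summed over 21 RGS genes, the level per length ranged from 538 to 577 without fenoterol, 597 to 647 at 1 h and 406 to 429 at 4 h. The part of *Rgs10* in it was 69.5 ± 1.37% without fenoterol, then 56.7 ± 3.09% and 49.8 ± 1.09%. *Rgs2* went from 8.86 ± 0.361% to 23.3 ± 2.00% and 20.6 ± 1.85%, and *Rgs1* from 0.730 ± 0.166% to 4.95 ± 1.05% and 4.94 ± 0.466%. The 3 groups did not overlap in the share of *Rgs10*, while the shares of *Rgs1* and *Rgs2* overlapped between 1 h and 4 h. These shares depend on the transcript length used: with all exon bases of a gene, *Rgs10* had 61.4%, 47.1% and 41.0%, and *Rgs2* had 12.7%, 31.3% and 27.5%. Among 6 GRK genes *Grk2* held 82.8%, 82.5% and 82.1% of the level and *Grk6* 14.9%, 15.2% and 14.6%. Of the 2 β-arrestins *Arrb2* held 81.6%, 80.0% and 82.4%.

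**Figure D4:**
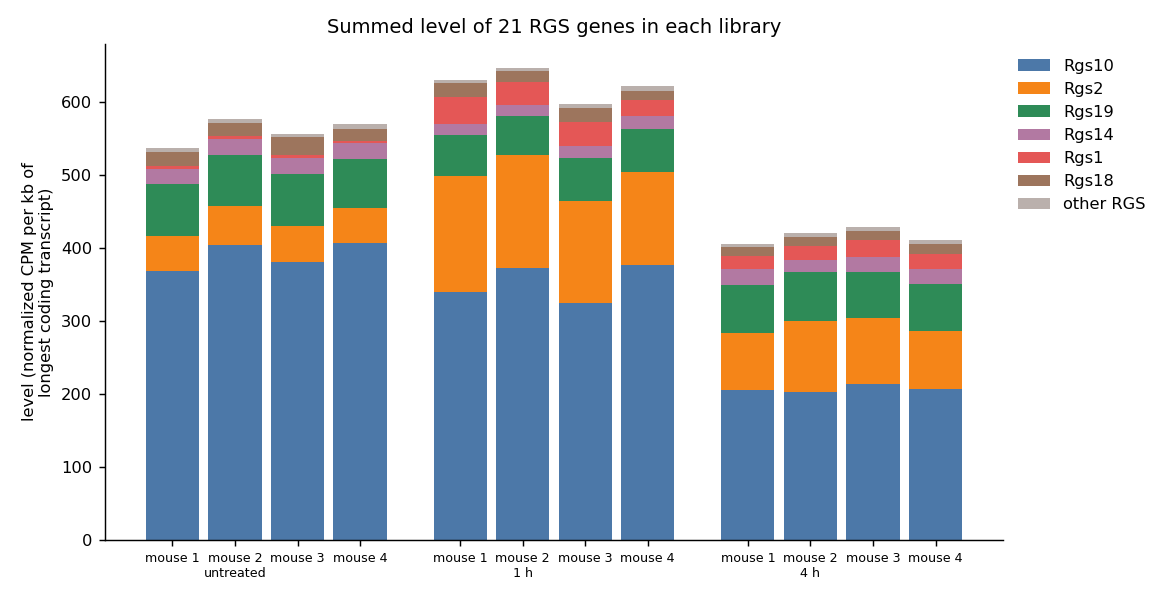
Level per length summed over 21 RGS genes (y axis, normalized CPM for each kb of the longest coding transcript) in each of the 12 libraries, with colors for single genes. The sum is highest at 1 h, *Rgs10* is the largest block in every library, and the *Rgs2* and *Rgs1* blocks widen at 1 h.

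Between 1 h and 4 h, 6 of the 10 genes differed, against 38.5% of all genes tested, and also 6 with the mouse as a block, against 46.6%. *Rgs19* was higher at 4 h, as were 18.7% of all genes, and *Rgs1*, *Rgs2*, *Rgs10*, *Rgs18* and *Arrb1* were lower, as were 19.8%. For *Rgs1*, *Rgs2* and *Rgs19* the later value lay nearer to the untreated one, and for *Rgs10*, *Rgs18* and *Arrb1* farther from it. With a minimum change of 2-fold, 3 of the 10 passed at 1 h, against 3.92% of all genes, and they were *Rgs1*, *Rgs2* and *Rgs16*. At 4 h only *Rgs1* did, against 8.10%. Between the times no change of the 10 reached 2-fold, the largest being -0.77 for *Rgs10*, against 6.34% of all genes that did and passed edgeR's test.

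Of 15 other RGS genes, 4 passed the filter on low counts and were tested. *Rgs3*, which encodes a regulator of Gi and Gq signaling, had 63.2, 95.1, 61.7 and 57.1 normalized counts in mice 1 to 4 without fenoterol, then 2.05, 13.5, 11.8 and 16.4 at 1 h and finally 24.0, 19.8, 24.1 and 12.5 at 4 h. All treated values were below all untreated ones, on 2 to 16 raw counts a library at 1 h. *Rgs3* changed by -2.64 at 1 h (edgeR adjusted p = 0.00011) and -1.78 at 4 h (adjusted p = 0.000692). *Rgs14*, which encodes a regulator of Gi, fell at 1 h (-0.44, adjusted p = 0.000598) and, as *Rgs19* did, rose from 1 h to 4 h (0.30, adjusted p = 0.00548). *Rgs3* and *Rgs14* were the 2 genes of the 4 called at 1 h and *Rgs3* the 1 called at 4 h, where 20.1% and 40.0% of all genes passed. With the mouse as a block, 2 were called at 4 h, 1 higher and 1 lower, against 47.4% of all genes.

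The other GRK and arrestin-fold genes included several that passed the test. Of 4 other GRK genes 3 were tested, with 1 gene higher and 1 lower at 4 h, against 40.0% of all genes. At 1 h, 0 passed with edgeR, DESeq2 or limma, and 0 had an unadjusted edgeR p under 0.05. *Grk5*, which encodes a membrane-bound receptor kinase, had 357 ± 31.8 normalized counts without fenoterol, 347 ± 30.8 at 1 h, and 666 ± 70.3 at 4 h (log2 fold change 0.90, edgeR adjusted p = 2.15e-06), and *Grk3*, the closest relative of *Grk2*, had 139 ± 23.2, 154 ± 26.6 and 82.2 ± 4.26 (-0.76, adjusted p = 0.00101). Even so *Grk5* was 2.69 ± 0.218% of the GRK level at 4 h. Of 8 other arrestin-fold genes 5 were tested, with 1 higher and 2 lower at 1 h, where 20.1% of all genes passed, and 2 higher and 2 lower at 4 h, where 40.0% did. At 1 h *Txnip*, whose product binds thioredoxin and limits glucose uptake, fell (-1.18, adjusted p = 7.04e-07), as did *Arrdc2* (-1.01, adjusted p = 4.01e-05), and *Arrdc3*, whose product has been linked to β-adrenergic receptor trafficking, rose (1.12, edgeR adjusted p = 9.26e-05).

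**Figure D5:**
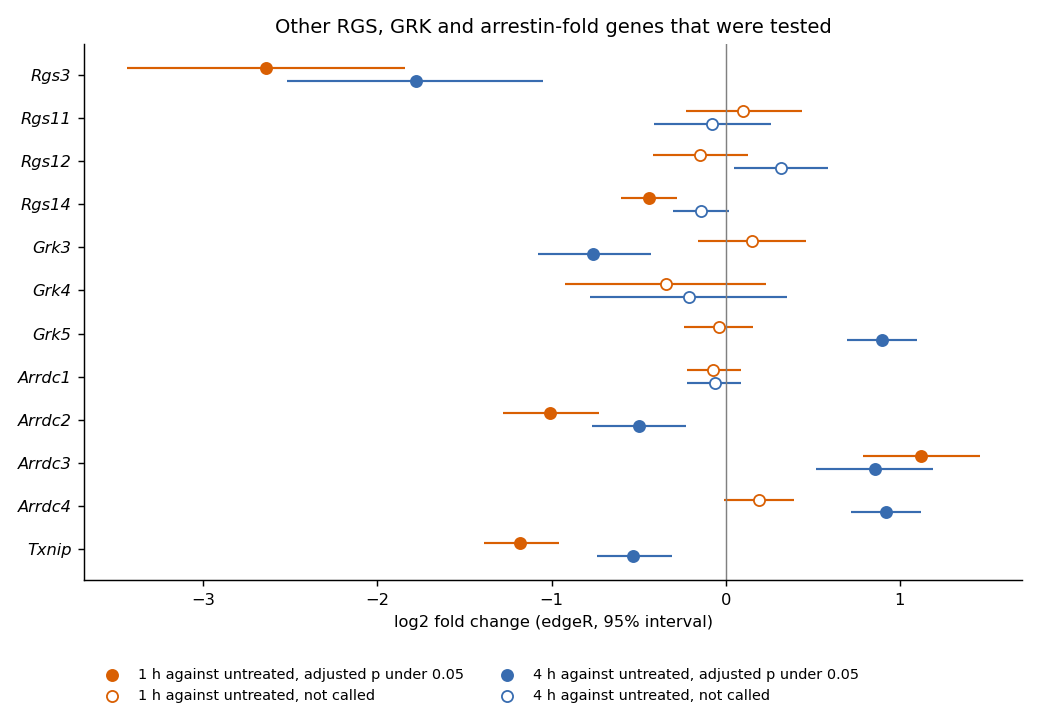
Log2 fold change against untreated BMDMs (x axis) of the other RGS, GRK and arrestin-fold genes that were tested (y axis) at 1 h in orange and 4 h in blue, from edgeR with 95% intervals; filled points had an adjusted p under 0.05. *Rgs3*, *Txnip* and *Arrdc2* lie to the left at both times, *Arrdc3* lies to the right at both, and *Grk5* and *Grk3* move apart at 4 h.

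Genes of the G protein subunits, of which Gα is the substrate of RGS proteins, were counted in the same way. Of 13 Gα genes 9 were tested, with 1 higher and 2 lower at 1 h and 1 higher and 3 lower at 4 h, against 20.1% and 40.0% of all genes. *Gna12* fell from 12070 ± 387 to 5990 ± 228 normalized counts at 4 h (-1.01, edgeR adjusted p = 5.41e-09), and *Gna15* (-0.93, adjusted p = 2.82e-06) and *Gna13* (-0.41, adjusted p = 1.55e-05) also fell. The Gs gene *Gnas* had values of 0.06 at 1 h (95% interval -0.07 to 0.20) and -0.11 at 4 h (-0.24 to 0.03), and was lower at 4 h than at 1 h (-0.17, edgeR adjusted p = 0.0433, 4 of 4 mice). For the Gi gene *Gnai2* the values against untreated were 0.07 (-0.03 to 0.17) and -0.01 (-0.11 to 0.09). *Gnas* and *Gnai2* were named after their values were seen, as the partners of B2AR and of RGS proteins. Of 15 Gβ and Gγ genes 10 were tested, with 1 higher at 1 h (3 with the mouse as a block, against 27.0% of all genes in that fit) and 2 higher and 2 lower at 4 h, where *Gng4* had a log2 fold change of 5.32 from 0 to 7 raw counts per untreated library (adjusted p = 2.71e-07), *Gng12* -0.51 (adjusted p = 3.8e-06) and *Gnb4* 0.41 (edgeR adjusted p = 0.000943).

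Downstream of β-arrestins, 22 of 23 genes of receptor endocytosis and recycling were tested, with 4 higher and 2 lower at 1 h and 4 higher and 3 lower at 4 h (8 and 3 with the mouse as a block). Of all genes, 20.1% passed at 1 h and 40.0% at 4 h (47.4% with the block). At 4 h *Rab4a*, a GTPase of fast recycling, went from 103 ± 13.9 to 261 ± 55.6 normalized counts (1.33, edgeR adjusted p = 5.14e-06), *Rab11a*, of slow recycling, from 1834 ± 241 to 2542 ± 172 (0.47, adjusted p = 0.00039), and *Snx27*, which encodes a sorting nexin that returns B2AR to the membrane, from 2903 ± 102 to 1754 ± 101 (-0.73, adjusted p = 1.45e-07). These 3 had the largest changes of the list among genes that passed. The other β-adrenergic receptor genes *Adrb1* and *Adrb3* had at most 2 counts in any library and were not tested.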

How the data were processed

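The authors made stranded mRNA libraries, sequenced them as single-end reads of 50 bases in 1 lane, mapped the reads to GRCm38 with TopHat2 2.0.11 and counted them per gene with HTSeq 0.8.0, and they tested vsn-scaled counts with limma. The deposited values are raw counts, 1 column per library. Which strand option HTSeq was run with, and on which annotation release, is not given in the sources used here. Symbols and coordinates were taken from GENCODE M21, to which 53274 of 53379 genes were matched. From the deposited counts, 12386 genes that passed filterByExpr were fitted with edgeR 4.0.16 in R 4.3.3 (TMM scaling, quasi-likelihood test, 1 fit of all 12 libraries, group means, no covariate). Benjamini-Hochberg adjustment was made per comparison, and an adjusted p under 0.05 was called. Normalized counts are TMM-scaled to the mean library size. Ratios used counts plus 0.5. Values per length were CPM values, computed from the deposited counts, divided by the length of the longest coding transcript.

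By the labels, each mouse gave 1 library per group, so equal numbers pair the libraries. The deviations from the group means of same-numbered libraries had Pearson's r of 0.29 to 0.561 over genes (12 pairs), and those of other pairs -0.304 to 0.0912 (36 pairs). Replicates differed by more than counting error (chi-square of 9.38 to 19.5 per degree of freedom). TMM factors were 1.00 to 1.02, 0.953 to 0.974 and 1.02 to 1.04 in untreated, 1 h and 4 h libraries, and omitting them moved the median log2 fold change of all genes to -0.0733 at 1 h, 0.0284 at 4 h and 0.1001 between the times (-0.0049, 0.0042 and 0.0074 with them).

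The members, gene lists, tests and alternatives were chosen with earlier results of these data known. From each other list at most 3 genes are named, those with the largest change against untreated BMDMs among genes called. *Gnas* and *Gnai2*, the cell type markers, and the genes named as not tested, fall outside this rule. For the 3 members with the smallest p over the 3 groups, the 3 genes with the nearest pair of fold changes are named, out of those averaging at least 50 normalized counts. Results of some genes of the lists are not reported here. The alternatives were RLE scaling, library size only, no low count filter, DESeq2 1.42.0, limma-voom and limma-trend (limma 3.58.1), a fit without the group not compared, a block for the mouse, stricter thresholds, and each library left out. On simulated counts for the 1 h comparison with 12243 genes, edgeR recovered 162 of 200 changed genes with 3 false calls. A far larger share of genes, 20.1%, passed at 1 h in the data than was changed in the simulation. Recovery was not broken down by size of change. It therefore cannot decide calls on small changes, such as those of *Rgs10* and *Arrb2* at 1 h.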

Additional observations from a re-analysis of the deposited data

Results flagged for a closer look

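For 6 of the 10 genes the 1 h and 4 h libraries differed in edgeR's test of 4 h against 1 h. The log2 fold change between the times was -0.58 for *Rgs1*, -0.76 for *Rgs2*, -0.77 for *Rgs10*, -0.40 for *Rgs18*, 0.21 for *Rgs19* and -0.19 for *Arrb1*. This share stands against 38.5% of all genes tested. Among 36 groups of 4 libraries examined for a single outlying value, over the 10 genes and the 2 ratios, 0 had one, where chance gives about 1.8. With 4 values only an extreme one can be found. The groups share libraries and the ratios reuse 4 of the genes, so the absence of outliers does not follow.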

How the results depend on the processing

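The counts of genes called among the 10 ranged from 3 to 4 at 1 h, 5 to 6 at 4 h and 5 to 6 between the times when 1 library was left out. With a minimum of 2-fold they were 1 at 4 h and 0 between the times. Of the fold changes of the 10 genes under alternatives other than leaving out a library, 230 kept direction and call, 2 lost the call, 7 gained it and 1 reversed, which was *Grk6* between the times, 0.07 with scaling by library size only. With 1 library left out, 341 kept both, 5 lost the call, 4 gained it and 10 reversed, in *Arrb1* at 1 h (range -0.03 to 0.01), *Grk6* at 1 h (-0.06 to 0.01), and, between the times, *Arrb2* (-0.0028 to 0.06), *Grk2* (-0.01 to 0.05) and *Grk6* (-0.06 to 0.01). The log2 ratio of *Grk6* to *Grk2* ranged from -0.07 to 0.03 at 4 h and from -0.10 to 0.01 between the times. None of these reversed values had passed a test, and the cause was not tested.

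With the mouse as a block, 6 of the 10 genes were called at 1 h, 7 at 4 h and 6 between the times. The block changed the calls of *Rgs10* and *Arrb2* at 1 h and of *Rgs16* and *Arrb2* at 4 h, and no other call among the 10 genes. *Rgs16* had 7 to 37 raw counts a library, so its fold changes are the least precise, with a standard error of 0.33 at 1 h.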

Other observations

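The genes whose pair of log2 fold changes at 1 h and 4 h lay nearest to those of a member were sought among 10288 genes. *Tinf2* (1.52 and 0.73), *Tal1* (1.51 and 0.72) and *Nufip1* (1.55 and 0.88) were nearest to *Rgs2*, at distances of 0.07, 0.08 and 0.09. For *Rgs1* they were *Plaur*, which encodes the urokinase receptor (2.99 and 2.43), *Rrp1b* (3.02 and 1.85) and *Tnfsf14* (2.45 and 2.14), of which *Plaur* lay at a distance of 0.12 and the others at 0.49 and 0.50. For *Rgs10* they were *Tmem154* (-0.13 and -0.90), *Rnase4* (-0.12 and -0.91) and *Slit1* (-0.12 and -0.90), at distances of 0.01 to 0.02. The likeness is measured over 2 fold changes that share the untreated libraries and is a description only.

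Annotated genes that start within 500 kb of the start of each member were counted beside the shares of all genes that passed edgeR's test at 4 h (19.7% higher and 20.4% lower). Around *Rgs1* 3 of 10 such genes were tested, and *Rgs2* was the 1 that passed at either time. Around *Rgs2* 5 of 12 were tested, and *Rgs1* was the 1 that passed. Around *Rgs18* 0 of 8 were tested. Around *Rgs16* 8 were tested, with 1 higher and 6 lower at 4 h, and around *Rgs10* 18 were tested, with 2 higher and 6 lower. Around *Rgs19* 16 were tested, with 3 higher and 3 lower. Near the kinase genes, 31 were tested for *Grk2*, with 7 higher and 5 lower, and 22 for *Grk6*, with 7 higher and 1 lower. Near the β-arrestin genes, 13 were tested for *Arrb1*, with 2 higher and 3 lower, and 29 for *Arrb2*, with 3 higher and 9 lower. These counts are a description with no test, and genes within 1 window are not independent.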
